A study of Mus musculus with 4 samples.

Results

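Apelin and its receptor were followed in endothelial cells of the mouse heart from E12 to adulthood. Apln, which encodes the ligand, and Aplnr, which encodes the receptor, are 2 of the 27998 genes in the deposited single-cell count matrices, and both were found by symbol. Apln (ENSMUSG00000037010) lies on the minus strand of chromosome X, from 48025146 to 48034853 in GRCm38, and its basic GENCODE transcript has 3 exons. Aplnr (ENSMUSG00000044338) lies on the plus strand of chromosome 2, from 85136225 to 85139923, and is annotated with 1 exon. Both are protein coding. The 3' tags that were counted read the end of each transcript and say nothing of isoforms or protein.

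Apelin is a secreted peptide that is cut from a longer precursor and binds the apelin receptor, a G protein-coupled receptor that acts mainly through inhibitory G proteins and beta-arrestins. Apela, also called Elabela or Toddler, is the other known ligand of the same receptor. In growing vessels apelin is known as a product of tip cells, the leading cells of a sprout, whereas the receptor is known from veins and from the cells behind the tip. In the heart the receptor is known from the sinus venosus and the coronary vessels that sprout from it, and apelin signalling is known for vessel growth, vessel calibre and contractility.

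The study profiled C57Bl6J mouse hearts at 4 stages, E12, E15, P2 and adult at 8 weeks, with 1 droplet library for each stage. Each library pooled hearts, 37 for E12, 48 for E15, 21 for P2 and 6 for the adult, and CD31+/CD45- cells were sorted and frozen before capture. Thawed cells were depleted of dead cells at the embryonic stages and sorted again at P2 and in the adult, and the digestion differed too, so stage cannot be told apart from handling. The labels name no allele and no agent for any group. After the limits of the study's methods 5259, 5405, 5516 and 4002 cells were kept in the libraries of E12, E15, P2 and adult hearts, with a median of 1209, 973, 4421 and 1472 unique molecular identifiers (UMIs) a cell. Each pair of libraries shared between 19 and 50 cell barcodes, at most 0.925% of the smaller library. With 1 library a stage no test between stages or cell classes was possible, and the 95% intervals given are exact and cover counting error only.

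Cells were put in 3 classes by summed UMIs of a few genes. Endocardial cells had 1 or more UMIs of Npr3 and Tmem108 and none of Fabp4 and Cldn5, coronary cells had 2 or more UMIs of Fabp4 and Cldn5 and none of Npr3 and Tmem108, and artery cells had 3 or more UMIs of Cxcl12, Glul, Alpl and Nebl. The coronary gate held 75, 1044, 3544 and 3784 cells in these libraries, and the endocardial gate held 1535, 1821, 250 and 19. A UMI of Pecam1 or Cdh5, defining genes of endothelium, was found in 62.7%, 63.8%, 99.0% and 91.3% of coronary cells and in 40.8%, 44.7%, 97.2% and 89.5% of endocardial cells at the same stages. At E12 epicardial markers summed to 123 CPM and mesenchymal markers to 1017 CPM in the endocardial gate, against 13.3 and 113 CPM in the coronary gate, and their part in the levels was not tested. Here CPM is the count of a gene divided by all counts of the class and multiplied by 1e6. In the embryo most cells of the artery gate had no Pecam1 or Cdh5 UMI. Only 6.64% of its 286 cells at E12 and 25.9% of its 58 cells at E15 had such a UMI, and 6 mesenchymal markers summed to 3290 and 6766 CPM there. At E15 13 of its cells also passed the coronary gate, and 61.5% of these had such a UMI. Their artery markers summed to 3139 CPM, against 1113 CPM in E15 coronary cells outside the artery gate. Artery cells are therefore described at P2 and in the adult. There 99.7% of 653 and 94.5% of 1755 cells had a Pecam1 or Cdh5 UMI. Such a UMI marks endothelium and does not tell arterial from capillary cells. The gate took 1732 of the 3784 adult coronary cells. In the adult 17 listed artery markers summed to 2328 CPM in the gate and 1135 CPM in coronary cells outside it. The P2 sums were 2883 and 802 CPM. How many other coronary cells the gate held was not tested.

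Apln was higher in coronary than in endocardial cells at E12, E15 and P2, the stages where both could be read. Its summed level in coronary cells was 46.6 CPM at E12 (7 UMIs, interval 18.7 to 96.0), 82.5 CPM at E15 (100 UMIs, 67.1 to 100.3), 93.1 CPM at P2 (1557 UMIs, 88.5 to 97.8) and 29.7 CPM in adult cells (185 UMIs, 25.5 to 34.3). In endocardial cells no Apln UMI was found at E12, which allows a level of up to 1.47 CPM, and the levels were 4.25 CPM at E15 (8 UMIs) and 1.95 CPM at P2 (2 UMIs). Such a limit for a level is that of 3 UMIs, and the exact interval here ends at 1.81 CPM. The 19 adult endocardial cells held none, which allows up to 93.3 CPM, above the adult coronary level. Coronary and endocardial levels did not overlap at E12, E15 or P2. At E12 the coronary level was 31.6-fold above the endocardial limit of 1.47 CPM, and the exact interval of the ratio starts at 19.5. The coronary level was 19.4-fold higher than the endocardial level at E15 (9.47 to 46.2) and 47.7-fold higher at P2 (13.2 to 394). Both gates leave out 1655 P2 cells that had UMIs of genes of both gates. Those cells held 16.8 CPM Apln.

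Aplnr had the same division between the 2 endothelia and a higher level. Coronary cells held 106 CPM at E12 (16 UMIs, 60.8 to 173), 154 CPM at E15 (187 UMIs, 133 to 178), 424 CPM at P2 (7086 UMIs, 414 to 434) and 333 CPM in adult hearts (2075 UMIs, 318 to 347). Endocardial cells held 4.42 CPM at E12 (9 UMIs), 5.32 CPM at E15 (10 UMIs), 7.81 CPM at P2 (8 UMIs) and 31.1 CPM in adult hearts (1 UMI). The receptor was higher in coronary cells by 24.1-fold at E12 (10.0 to 61.8), by 29.0-fold at E15 (15.4 to 61.5) and by 54.2-fold at P2 (27.5 to 126). The 1655 P2 cells with UMIs of genes of both gates held 97.6 CPM Aplnr. The P2 ratios of both genes thus hold only for cells that passed 1 of the 2 gates. The adult ratio of 10.7 rests on that 1 endocardial UMI and runs from 1.92 to 423.

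**Figure D1:**
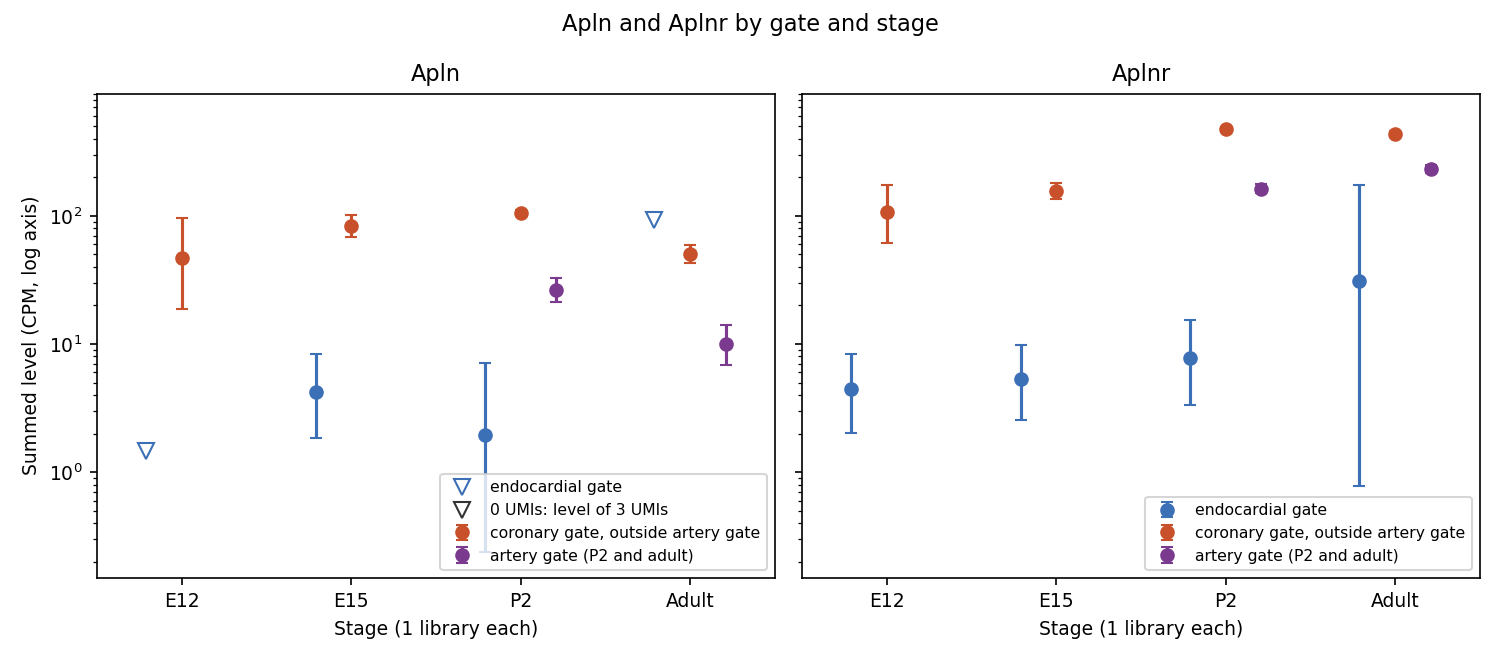
Summed level of Apln (left) and Aplnr (right) in CPM, on a log axis, by stage, in endocardial cells, coronary cells outside the artery gate and artery cells, with 1 library a stage. Bars are exact 95% Poisson intervals and open triangles mark the level that 3 UMIs would give where none was found. Both genes are higher in coronary than in endocardial cells at E12, E15 and P2, with no overlap, and artery cells lie between them at P2. Cells with markers of both the endocardial and the coronary gate are not shown.

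RNA outside cells could be read at E12, where the deposited matrix holds every barcode. In 155236 barcodes with 1 to 50 UMIs, taken as empty droplets, Apln stood at 14.5 CPM and Aplnr at 33.9 CPM. The Aplnr level of the E12 endocardial cells, 4.42 CPM, lies below that, and the coronary level of 106 CPM lies above it. The droplet figures are shares of the RNA in those droplets, and how much of it entered cells was not tested. For Apln the coronary interval at E12 starts at 18.7 CPM, close above the empty droplets. When cells had to hold a Pecam1 or Cdh5 UMI, Apln at E12 was 61.3 CPM in 47 coronary cells and 0 UMIs in 627 endocardial cells, which allows up to 3.54 CPM. Aplnr was 91.9 CPM in these coronary and 7.07 CPM (6 UMIs) in these endocardial cells.

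The share of cells with a UMI moved with depth and with level. An Apln UMI was found in 5.33% of coronary cells at E12 (4 of 75), 7.28% at E15 (76 of 1044), 22.7% at P2 (805 of 3544) and 3.12% in adult hearts (118 of 3784). After each cell was thinned to 500 UMIs these shares were 1.33%, 3.77%, 4.29% and 1.06%. An Aplnr UMI was found in 18.7%, 14.5%, 64.2% and 30.4% of coronary cells at the same stages, and in 4.0%, 6.42%, 19.2% and 14.0% after thinning. At P2, where the lymphatic gate (3 or more UMIs of Prox1, Lyve1, Mmrn1 and Pdpn) held 287 cells with a median of 5309 UMIs, 1.05% of them had an Apln UMI and 5.23% an Aplnr UMI, against coronary cells with a median of 4314 UMIs. Single cells reached 18 UMIs of Apln and 22 of Aplnr at P2.

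Most of the signal from E15 on lay inside the coronary gate. It held 78.7% of the library's Apln UMIs at E15, 91.5% at P2 and 100% in adult hearts, and 81.7%, 89.6% and 99.0% of the Aplnr UMIs. The gate held 19.3%, 64.2% and 94.6% of all cells at these stages, so the adult shares lie near its share of cells. At E12 the coronary gate, with 1.43% of cells, held 7 of 29 Apln and 16 of 93 Aplnr UMIs. The 3446 cells without a UMI of any of the 4 gate genes, 65.5% of cells, held 14 and 54. At P2 the rest lay mostly in 1655 cells with markers of both gates (30.0% of cells), which held 140 Apln and 815 Aplnr UMIs.

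Ligand and receptor were both lower in artery cells than in coronary cells outside the artery gate at P2 and in the adult. Apln stood at 26.6 CPM in artery cells at P2 (88 UMIs) against 106 CPM in coronary cells outside the artery gate, a ratio of 0.251 (0.20 to 0.312). In the adult it was 10.0 CPM (33 UMIs) against 50.7 CPM, a ratio of 0.197 (0.131 to 0.289). Aplnr stood at 163 CPM (539 UMIs) against 473 CPM at P2, a ratio of 0.344 (0.315 to 0.376), and at 233 CPM (768 UMIs) against 438 CPM in adult hearts, a ratio of 0.532 (0.486 to 0.581). For Aplnr in the adult the ratio was 0.405 when doublets were called at the default rate and 0.353 under stricter gates.

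At E15, P2 and adult hearts the highest levels outside dividing cells were in mature capillary cells, which are coronary, outside the artery gate, and hold 3 or more UMIs of Car4, Timp4, Rgcc and Gpihbp1. At E15 the coronary cells without Apln held 5 Car4 and 1 Timp4 UMIs and those with Apln none, so the gate rests on Rgcc and Gpihbp1 at that stage. Apln was 178 CPM there at E15 (28 UMIs, 106 cells), 122 CPM at P2 (1429 UMIs) and 56.0 CPM in adult hearts (133 UMIs). Aplnr was 166 CPM at E15 (26 UMIs), 529 CPM at P2 (6221 UMIs) and 488 CPM in adult hearts (1158 UMIs). All coronary cells outside the artery gate held 156 CPM Aplnr at E15, close to that level. At P2 the capillary gate took 2481 of the 2980 coronary cells outside the artery gate. Those 2980 cells held 106 CPM Apln and 473 CPM Aplnr. Capillary and vein cells, the latter with 2 or more UMIs of Vwf, Prss23 and Nr2f2 and 1 or more of Fabp4 and Cldn5, were compared without the cells that passed both gates. The receptor was 5.32-fold higher in capillary than in vein cells at P2 (4.81 to 5.90), and the adult ratio was 4.78 (3.49 to 6.73), whereas the E15 ratio of 1.45 (0.651 to 3.55) did not separate them. Apln in capillary cells exceeded that in vein cells by 5.08-fold at E15 (1.57 to 26.1) and by 10.9-fold at P2 (8.11 to 14.8). In the adult that ratio of 22.6 rests on 1 vein UMI and runs from 3.99 to 900. The vein gate is not free of other cells. Its mesenchymal and lymphatic markers summed to 771 and 394 CPM at P2, and its mural and mesenchymal markers to 2832 and 1495 CPM in the adult. Their part in the vein levels was not tested.

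Cells of the large artery gate held little of either transcript after birth. Cells with 3 or more UMIs of Fbln5, Gkn3 and Eln, the genes of elastic arteries, held 12.3 CPM Apln (81 UMIs) and 76.2 CPM Aplnr (503 UMIs) at P2, and 2.96 CPM (2 UMIs) and 20.7 CPM (14 UMIs) in the adult. Against cells of this gate alone, capillary cells held 15.6-fold more Apln (11.7 to 21.2) and 9.83-fold more Aplnr (8.81 to 11) at P2. The adult ratios were 18.3 for Apln (4.98 to 153) and 26.6 for Aplnr (15.1 to 51.5). This gate is not free of other cells at P2, since its mesenchymal and lymphatic markers summed to 1651 and 283 CPM. Its 10 listed vein markers summed to 2630 CPM at P2, above the 1989 CPM of the 17 listed artery markers. The artery markers include the gate genes Fbln5 and Gkn3. In the adult the sums were 1394 CPM for vein and 5106 CPM for artery markers. The P2 ratios are thus not those of capillary against arterial cells alone. Valve cells at P2 held 4.89 CPM Apln (24 UMIs) and 25.3 CPM Aplnr (124 UMIs).

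In order of level at P2, Apln stood highest in mature capillary and dividing coronary cells (122 and 118 CPM, with overlapping intervals), then in vein cells at 30.7 and artery cells at 26.6 CPM, whose intervals also overlap, then in large artery cells at 12.3 CPM, and last in valve, lymphatic and endocardial cells at 4.89, 2.51 and 1.95 CPM, whose intervals overlap. Aplnr stood in the same order, with mature capillary cells at 529, dividing cells at 368, vein cells at 209 and artery cells at 163 CPM, none of which overlapped. The vein and large artery gates share cells with the coronary gate, so these levels are not independent of each other. Vein cells outside the mature capillary gate held 11.4 CPM Apln and 97.6 CPM Aplnr at P2, below the artery cells. The place of vein above artery cells thus depends on cells that also passed the capillary gate. In the adult, vein cells held 188 CPM Aplnr (91 UMIs) and artery cells 233 CPM, with overlapping intervals.

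Dividing coronary cells, with 2 or more UMIs of Mki67, Top2a, Cenpf and Ube2c, held more ligand than the other coronary cells after birth. Apln was 1.38-fold higher in them at P2 (1.23 to 1.54, 453 UMIs in 576 cells) and by 4.89-fold in adult hearts (2.08 to 9.85), where 25 dividing cells held 8 UMIs. The other coronary cells include artery cells, and artery cells within the coronary gate held 28.9 CPM Apln at P2. Mature capillary cells held 122 CPM at P2, no less than the 118 CPM of dividing cells. The receptor was 1.48-fold higher in dividing cells at E15 (1.04 to 2.08), 0.837 of the level in other cells at P2 (0.789 to 0.887) and 1.64-fold higher in the adult (1.11 to 2.34). The receptor thus lay below 1 at P2 and above 1 at E15 and in adult hearts, and the difference between stages was not tested.

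Between P2 and the adult the ligand was lower by more than the receptor, with intervals of the 2 ratios that do not overlap. In coronary cells Apln was 1.77-fold higher at E15 than at E12 (0.829 to 4.52) and 1.13-fold higher at P2 than at E15 (0.922 to 1.40), neither apart from 1, and the adult level was 0.319 of that at P2 (0.272 to 0.371). Aplnr was 1.45-fold higher at E15 than at E12 (0.869 to 2.59), 2.75-fold higher at P2 than at E15 (2.38 to 3.19), and in the adult 0.785 of the P2 level (0.747 to 0.825). Among mature capillary cells the adult held 0.461 of the P2 Apln level (0.383 to 0.551) and 0.922 of the Aplnr level (0.865 to 0.982). In artery cells that also passed the coronary gate Aplnr was 1.35-fold higher in the adult than at P2 (1.20 to 1.51), while Apln was 0.353 of its P2 level (0.228 to 0.536). These are ratios between single libraries that were digested and handled differently, and the part of handling was not tested.

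Ligand and receptor were often found in the same coronary cell. At P2, 618 cells held both, 187 the ligand only, 1658 the receptor only and 1081 neither, so that 76.8% of ligand-positive cells also had a receptor UMI. The adult numbers were 65, 53, 1084 and 2582, or 55.1%, and those at E15 were 18, 58, 133 and 835, or 23.7%. At E12 a single coronary cell of 75 held both. An Apln UMI was found in 27.2% of receptor-positive cells (25.3 to 29.0) and 14.7% of the others (12.8 to 16.8) at P2. In the adult the shares were 5.66% (4.39 to 7.15) and 2.01% (1.51 to 2.62), and at E15 11.9% (7.22 to 18.2) and 6.49% (4.97 to 8.32).

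The excess was smaller at P2 and in adult hearts once depth or cell class was held. Cells with both genes were deeper, with a median of 5203.5 UMIs at P2, where cells with neither had 4264, and adult medians of 2415 and 1372. After thinning to 500 UMIs an Apln UMI was found in 4.86% of receptor-positive and 4.15% of other cells at P2, in 1.13% and 1.04% in adult hearts, and in 6.35% and 3.59% at E15, with overlapping intervals at each stage. Within mature capillary cells at P2 the shares were 29.4% and 27.1% at full depth, and 4.73% and 5.82% after thinning, so that the ratio passed from 1.08 to 0.812. In adult mature capillary cells it passed from 1.60 to 0.951. At E15 the capillary shares were 36.8% and 11.5%, a ratio of 3.21 from 106 cells, larger than the 1.84 over all coronary cells. Artery cells made up 32.2% of the cells with neither gene at P2 and 3.88% of those with both, and 52.0% and 20.0% in adult hearts.

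**Figure D2:**
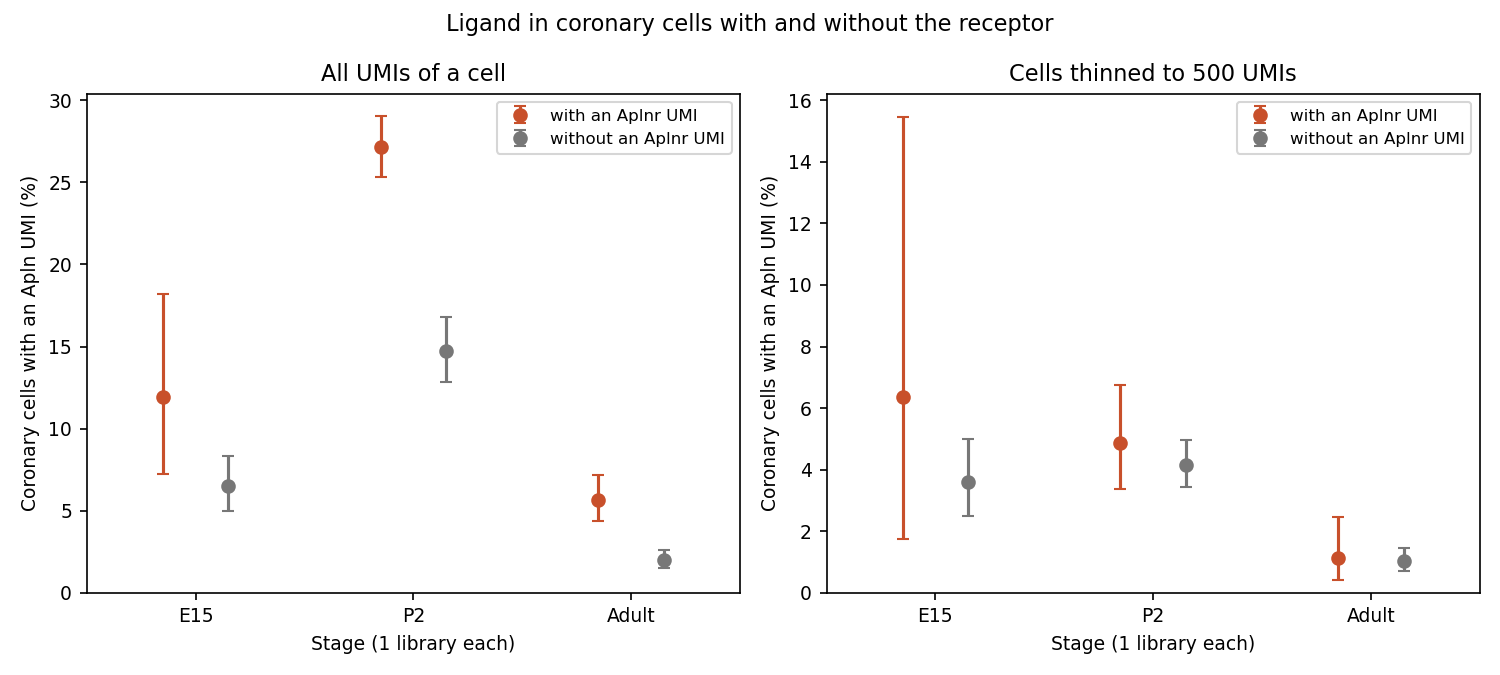
Share of coronary cells with an Apln UMI, in percent, among cells with and without an Aplnr UMI at E15, P2 and adult hearts, from all UMIs of a cell (left) and after thinning to 500 UMIs (right). The axes differ in range, and bars are exact 95% binomial intervals. The P2 shares of 27.2% and 14.7% at full depth become 4.86% and 4.15% after thinning.

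To find what set ligand and receptor cells apart, coronary cells with an Apln UMI and no Aplnr UMI were set against those with an Aplnr UMI and no Apln UMI. A gene counted as higher or lower when its ratio, with 20 CPM added to each side, passed 1.5-fold in 1 direction at E15, P2 and adult hearts, with 20 or more UMIs at each stage. Of 1639 genes that could be counted this way 3 were higher in ligand cells (0.183%) and 3 were lower (0.183%). Odc1, ornithine decarboxylase, the first step of polyamine synthesis, stood at 484 against 249 CPM at E15, 181 against 102 CPM at P2 and 287 against 44.4 CPM in adult hearts. Prkcdbp, which encodes the caveola protein cavin-3, stood at 349 against 178, 488 against 302 and 619 against 316 CPM. The third was Hras, a small GTPase of growth signalling, at 255 against 124, 123 against 74.2 and 62.8 against 29.9 CPM. Its adult value rests on 7 UMIs, with a ratio between 0.808 and 4.60, and it no longer passed over all called barcodes, at the default doublet rate, outside the artery gate, after thinning, with 50 or more UMIs or with 50 CPM added. Odc1 no longer passed with a required Pecam1 or Cdh5 UMI, under stricter gates or after thinning. Cells with neither gene held 366 CPM Prkcdbp at E15, beside the 349 CPM of ligand cells.

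Receptor cells had more of Tcf15, a transcription factor of heart capillary endothelium, at 379 CPM against 202 in ligand cells at E15, 471 against 299 at P2 and 493 against 251 in the adult. Slc6a6, the taurine transporter, stood at 130 against 53.8, 332 against 176 and 377 against 152 CPM, and 1810011O10Rik at 195 against 80.6, 389 against 233 and 733 against 314 CPM. Cells with neither gene held 60.6, 377 and 553 CPM Slc6a6 at E15, P2 and in the adult. That is above the receptor cells at P2 and in the adult, so Slc6a6 was not particular to receptor cells there. With 58 ligand cells at E15, few of the listed genes had enough UMIs there. Of the mature capillary list 7 of 12 members could be counted, with 1 lower and a median log2 ratio of -0.46, against 0.03 over all genes.

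At P2 and in the adult alone, a choice made after the first counts were seen, 7719 genes could be counted and 17 (0.220%) were higher and 54 (0.700%) lower in ligand cells. Set against the receptor-only cells, the tip cell list leaned towards the ligand-only cells. Of its 14 counted members 4 were higher and none lower, with a median log2 ratio of 0.66, against -0.03 over all genes. Adm, the vascular peptide adrenomedullin, was 125 CPM in ligand cells against 38.4 in receptor cells at P2 and 332 against 71.2 in the adult, and was present in 58 of 187 and 17 of 53 ligand cells. Dll4, the Notch ligand of tip and arterial cells, was 73.3 against 41.2 CPM at P2 and 170 against 73.8 in the adult. Pgf, placental growth factor, was 22.7 against 6.63 CPM at P2 and 233 against 9.28 in the adult, where 7 of 53 ligand cells held it. Cells with neither gene held 25.6 CPM Pgf at P2 and 19.1 CPM in adult hearts. Without the cell that held the most Pgf its ratio went from 3.43 to 2.2 at P2 and from 25.1 to 15 in the adult.

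Esm1, the tip cell proteoglycan endocan, was the fourth, at 28.9 against 3.25 CPM at P2 and 152 against 9.80 in the adult. The adult value rests on 4 of 53 ligand cells, of which 1 held 13 of the 17 UMIs, and without that cell the adult ratio went from 15.6 to 3.77 (0.933 to 11.3). With 50 CPM added in place of 20, Adm was the 1 tip cell gene still counted as higher. In the 618 P2 cells with both genes, Esm1, Dll4, Pgf and Adm stood at 5.70, 42.7, 12.5 and 63.6 CPM. Cells with neither gene held 13.6, 57.9, 25.6 and 46.4 CPM there. Adult cells with both held 25.4, 82.5, 127 and 209 CPM, and those with neither 31.0, 115, 19.1 and 37.5 CPM. Esm1 itself was rare, with a UMI in 3.48% of Apln-positive and 2.01% of other coronary cells at P2, and in 5.93% and 2.81% in adult hearts, with overlapping intervals at both stages. None of the 4 Apln-positive coronary cells at E12 held Esm1, which 5 of the other 71 did, and so few cells allow a share of up to 60.2%. Over all E12 cells none of 25 Apln-positive cells held it, which allows up to 13.7%, against 0.229% of the other cells. Over all E15 cells the shares were 4.08% (1.12 to 10.1) and 0.283% (0.158 to 0.466). Over all P2 cells they were 3.38% (2.29 to 4.79) and 1.36% (1.05 to 1.74). Those intervals are separate, but they overlap over all adult cells and in E15 coronary cells (2.63% and 1.34%). The part of cell class and depth in these shares was not tested.

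The mature capillary list lay on the receptor side, with 5 of 12 counted members lower in ligand cells, none higher, and a median log2 ratio of -0.69. Car4, a carbonic anhydrase of the capillary surface, was 148 CPM in ligand cells against 390 in receptor cells at P2 and 179 against 487 in the adult. Timp4, an inhibitor of metalloproteinases, was 46.4 against 158 and 197 against 558 CPM. Aqp7, a glycerol channel, was 138 against 265 and 188 against 694 CPM, and Lpl, lipoprotein lipase, 203 against 400 and 341 against 794 CPM. Cells with neither gene held 200 CPM Aqp7 at P2 and 892 CPM in the adult. The adult value is above the receptor cells, so Aqp7 was not particular to them there. For Car4, Timp4, Lpl and Tcf15, cells with neither gene lay below the receptor cells at both stages. Between 4 and 6 of the 12 members were lower under every setting tried for this comparison.

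Of the immediate-early list, 3 of 9 counted members were lower in ligand cells, Fos, Jun and Klf4, with a median log2 ratio of -0.43. The vein list had none of 9 counted members past the limit and a median of -0.50. The hypoxia and glycolysis list had 1 of 16 higher, which was Adm, and a median of 0.40. None of 5 counted mitosis genes and none of 12 counted genes of the apelin pathway passed, with medians of -0.11 and 0.04. The artery, Notch and VEGF lists had 1 member higher each, Dll4 for the artery and Notch lists and Pgf for VEGF.

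The 2 sides also differed in make-up. Mature capillary cells made up 78.6% of ligand and 82.6% of receptor cells at P2, and 71.7% and 56.7% in adult hearts, and dividing cells made up 24.6% and 15.9% at P2. Ligand cells were deeper, with medians of 4771 and 3989.5 UMIs at P2, and of 1940 and 1627.5 in adult hearts. Erythroid markers summed to 17.9 CPM in adult ligand cells and 631 CPM in adult receptor cells, and at P2 to 6.19 and 11.6 CPM. The part of these differences in the gene ratios was not tested.

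**Figure D3:**
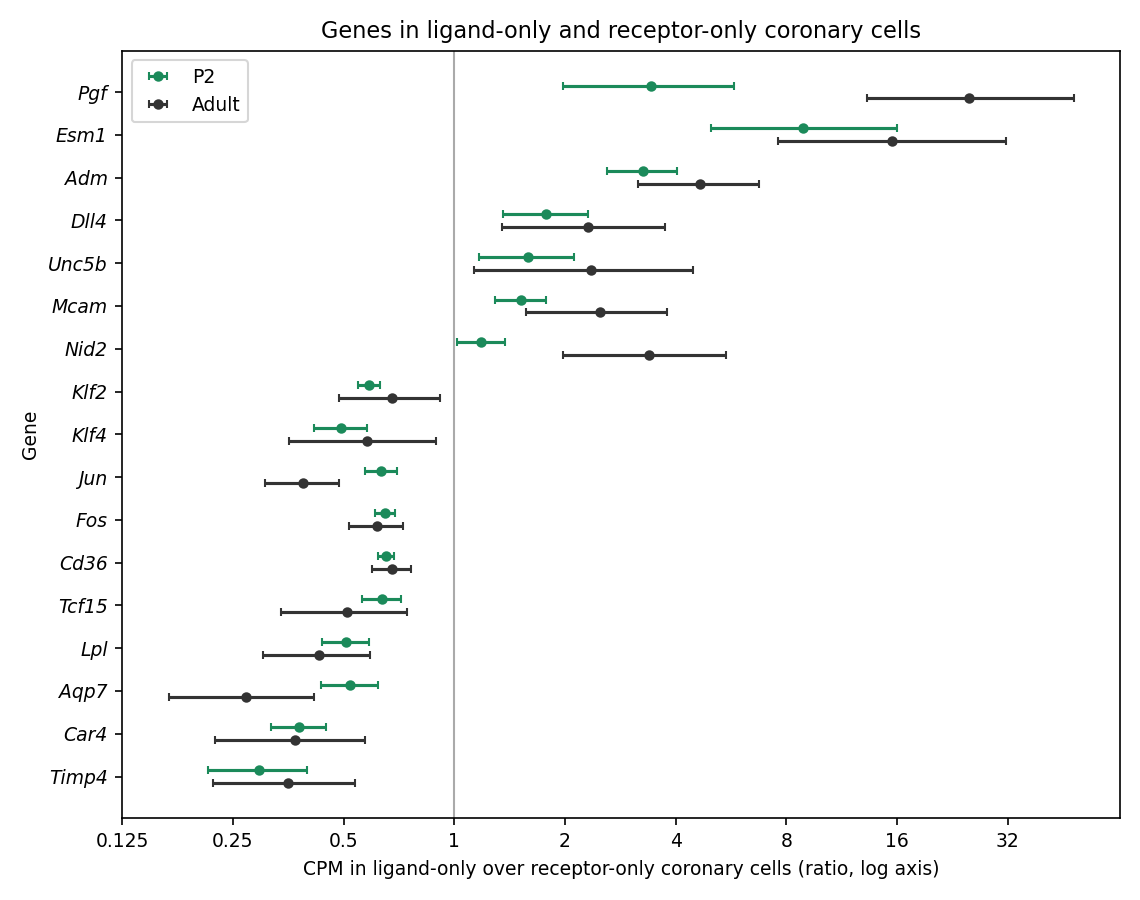
Ratio of CPM in ligand-only over receptor-only coronary cells, on a log axis, for 17 genes of the tip cell, immediate-early, apelin pathway and mature capillary lists at P2 and in the adult. Bars are exact 95% conditional binomial intervals that cover counting error only. Pgf, Esm1, Adm and Dll4 lie above 1 and Tcf15, Lpl, Aqp7, Car4 and Timp4 below 1 at both stages.

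Each gene was then taken alone, in a comparison also added after the first counts were seen, between coronary cells with and without its UMI. Of 5533 genes counted at E15, P2 and adult hearts, 4 (0.0723%) were higher with Apln and 23 (0.416%) lower. The higher genes were Odc1 at ratios of 2.27, 1.80 and 5.26, Ccnd1, cyclin D1 of the cell cycle, at 1.69, 1.59 and 2.09, Ift122 of the primary cilium at 2.32, 1.80 and 4.85, and the tubulin Tubb6 at 1.65, 1.85 and 4.64. The lower genes included Efnb2, the arterial ephrin, at 0.471, 0.518 and 0.545, and Edn1, endothelin, at 0.492, 0.383 and 0.283. They also included matrix genes such as Eln and Mgp. At E15 Ift122, Tubb6, Efnb2 and Edn1 held 6, 14, 5 and 3 UMIs in cells with Apln. Their E15 intervals include 1, so these genes are not apart from 1 at that stage.

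With Aplnr, 2 genes (0.0361%) were higher and 34 (0.614%) lower. Prcp encodes prolylcarboxypeptidase, an enzyme that can trim apelin peptides. It stood at 371 CPM with and 226 CPM without the receptor at E15, 373 and 200 CPM at P2, and 183 and 90.3 CPM in adult hearts. Bok, a member of the Bcl2 family, had ratios of 1.99, 1.85 and 1.76. The lower genes held lymphatic and matrix genes, led by Ccl21a and Fbln5 and with Mgp, Dcn and Eln, and also arterial genes. Gja4, the connexin 37 gene, had ratios of 0.0747, 0.0846 and 0.112, and Hey1, a Notch target of arteries, 0.182, 0.457 and 0.198. Gja5, connexin 40, had 10.97 against 70.7 CPM in adult hearts, and Jag1, Efnb2, Unc5b, Bmx and Mecom were lower as well. At E15 Bmx rested on 1 UMI in cells with Aplnr, with an interval that includes 1. The E15 ratios of Gja4 and Hey1 rested on 2 and 3 UMIs in cells with Aplnr. Cxcl12, which was lower too, is 1 of the genes of the artery gate.

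Cells without either gene also held other cell types. At P2 mesenchymal markers summed to 944 CPM and lymphatic markers to 350 CPM in coronary cells with neither gene, against 54.2 and 26.8 CPM in receptor cells and 32 and 8.25 CPM in ligand cells. Ccl21a, a chemokine known from lymphatic endothelium, stood at 12.3 CPM with and 1335 CPM without Apln at P2. These cells lie on the "without" side of both comparisons, and their part in the lower genes was not tested.

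Levels were also read by the number of UMIs of each gene in the coronary cells. At P2, cells with 0, 1, 2 and 3 or more Apln UMIs numbered 2739, 465, 167 and 173. Odc1 stood at 102, 152, 182 and 248 CPM along these bins, Car4 at 291, 251, 213 and 96.5 CPM, and Timp4 at 112, 109, 92.6 and 45.7 CPM. Adm stood at 41.6, 72.7, 66.3 and 94.0 CPM, whereas Dll4 showed no order, at 47.9, 52.8, 37.9 and 51.7 CPM, and Pgf stood at 14.1, 9.29, 20.0 and 21.5 CPM. Igfbp3, also of the tip cell list, stood at 140, 142, 122 and 132 CPM. The receptor did not follow the ligand, at 413, 508, 446 and 349 CPM. Along the Aplnr bins at P2, with 1268, 689, 508 and 1079 cells, Gja4 stood at 312, 44.2, 31.7 and 14.7 CPM, Prcp at 200, 294, 338 and 430 CPM and Timp4 at 42.6, 104, 128 and 163 CPM. Apln was 68.0 CPM in cells without a receptor UMI and between 95.4 and 119 CPM in the other bins.

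In the adult the 13 cells with 3 or more Apln UMIs and the 28 with 2 limit the reading. Odc1 was 32.5 CPM without Apln and between 160 and 198 CPM with it, and Adm was 48.4 CPM without and 173, 383 and 372 CPM with 1, 2 and 3 or more UMIs. Igfbp3 went the other way, at 93.6 CPM without Apln and 19.3, 26.4 and 0 CPM along the same bins. Along the adult Aplnr bins Gja4 was 89.3, 13.3, 9.56 and 3.81 CPM and Timp4 321, 463, 515 and 711 CPM. Prcp was 90.3, 173, 128 and 257 CPM, so its order was not the same as at P2.

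**Figure D4:**
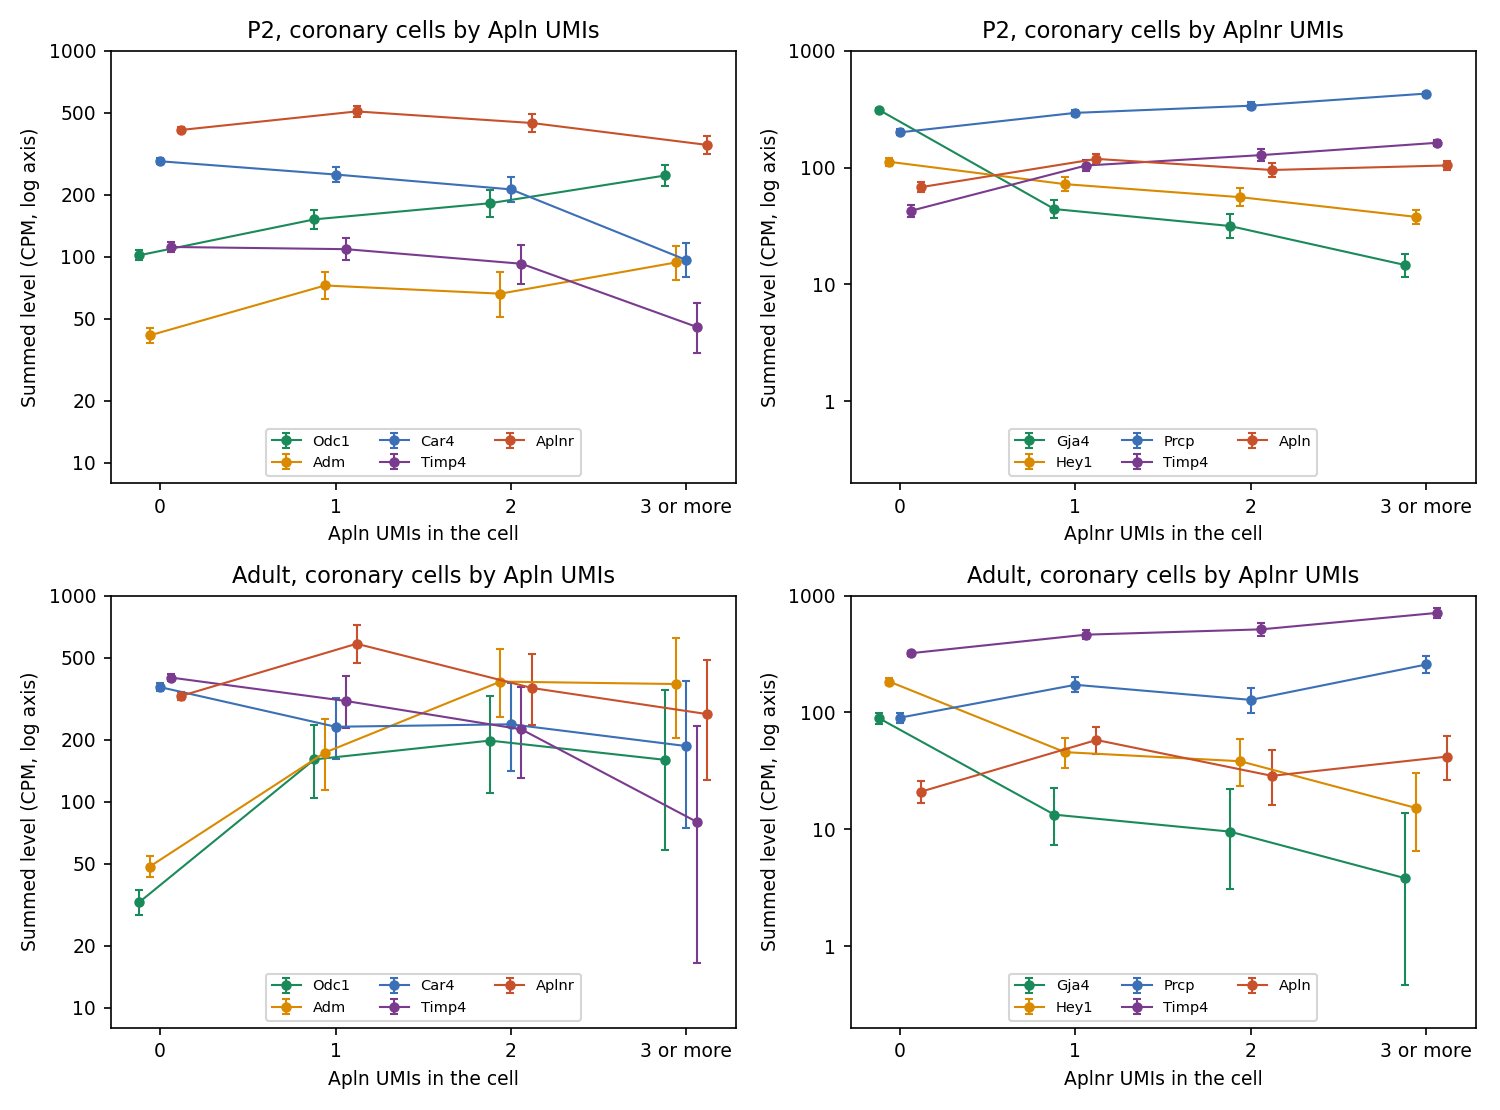
Summed level of selected genes in coronary cells, in CPM on a log axis, by the number of Apln UMIs (left) and Aplnr UMIs (right) in the cell at P2 (top) and in the adult (bottom), with exact 95% Poisson intervals. The points of a panel are different cells of 1 library. Odc1 is higher and Car4 and Timp4 are lower in the cells with most Apln at P2, and Gja4 and Hey1 are lowest in the cells with most Aplnr.

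Other genes of the apelin pathway were read in the same cells. Furin, a protease of the kind that cuts the precursor, stood at 13.3, 41.2, 37.0 and 49.2 CPM in coronary cells at E12, E15, P2 and adult hearts. Mme, which encodes neprilysin, a peptidase that degrades apelin, had at most 6 UMIs in the coronary cells of any stage. Among the G proteins Gnai2 was the most abundant inhibitory alpha subunit, at 719, 1181, 831 and 628 CPM, against 492, 542, 451 and 249 CPM in endocardial cells. Mef2c, a transcription factor linked to the pathway, was 173, 208, 319 and 322 CPM, and Klf2, a flow-responsive factor, 126, 207, 1418 and 575 CPM. Nos3, endothelial nitric oxide synthase, was 39.9, 73.4, 72.8 and 85.6 CPM. In endocardial cells it was 64.3, 95.7, 124 and 93.3 CPM, higher with separate intervals only at P2. The E12 coronary levels of Furin and Nos3 rest on 2 and 6 UMIs. The adult endocardial levels of Gnai2 and Nos3 rest on 8 and 3 UMIs.

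Apela, the other ligand, was found in different cells. At E12 it had 353 UMIs in 130 cells (2.47% of all cells) and at E15 35 UMIs in 16 cells, and no UMI was found at P2 or in the adult. By gate it looked endocardial, with 84.0 CPM in endocardial cells at E12 (171 UMIs, 71.9 to 97.5) and none in coronary cells, which allows up to 20.0 CPM. The endocardial level was 17.5-fold higher at E12 than at E15 (9.03 to 39.0). Empty droplets at E12 held 17.8 CPM.

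Apela cells lacked endothelial markers. A Pecam1 or Cdh5 UMI was found in 5 of the 130 (3.85%) against 29.0% of the other cells at E12, and in the 627 endocardial cells with such a UMI no Apela UMI was found, which allows up to 3.54 CPM. The 4 epicardial markers summed to 1406 CPM in Apela cells and 47.1 CPM in the others. Upk3b stood at 728 against 9.56 CPM, Wt1, a transcription factor of the epicardium, at 219 against 7.20 CPM and Tbx18 at 419 against 30.0 CPM. Of the gate genes Tmem108 was higher in Apela cells, at 324 against 150 CPM, and Npr3 lower, at 79.8 against 192 CPM. A single Apela cell had an Aplnr UMI and none had an Apln UMI.

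**Figure D5:**
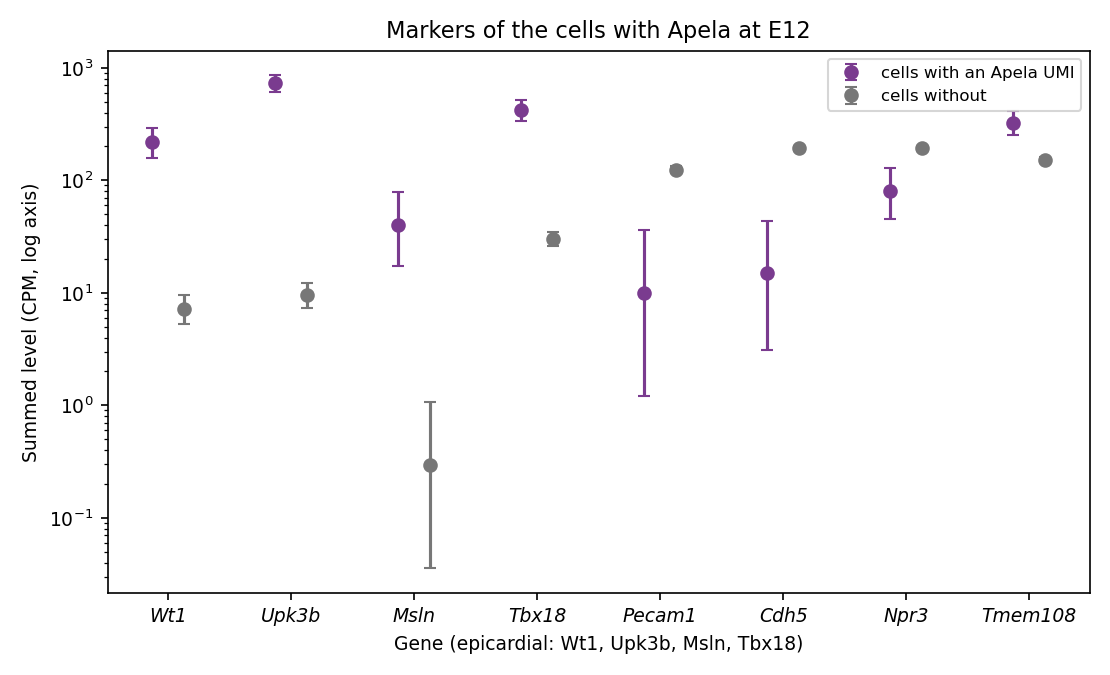
Summed level, in CPM on a log axis, of epicardial, endothelial and endocardial gate genes in the 130 cells with an Apela UMI at E12 and in all other cells of that library, with exact 95% Poisson intervals. Wt1, Upk3b, Msln and Tbx18 are higher and Pecam1 and Cdh5 lower in the cells with Apela.

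Genes whose level followed Apln or Aplnr across the 12 profiles of 3 classes and 4 stages were ranked by Pearson's r of log2(CPM + 20), as a description. For Apln the leading genes included Ccl21a (0.94), Tnfaip8l1 (0.93), Cd109 (0.91), Ankrd37 (0.90) and Tmem255a (0.90). For Aplnr they were Pcdh19 (0.97), Vwa1 (0.95), Gsap (0.95), Adm (0.95), Pcdh1 (0.94) and Arhgap25 (0.94). The correlation of Apln with Aplnr was 0.71, the 114th highest for Apln and the 585th for Aplnr. The profiles share libraries and some cells, and those with few cells carry as much weight as the rest. They include the artery gates of E12 and E15, where most cells had no Pecam1 or Cdh5 UMI, and the 19 adult endocardial cells. The ranking is thus not limited to endothelial cells. Ccl21a led the list for Apln across the gates but had the lowest mean ratio of the 23 genes that were lower in coronary cells with Apln.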

How the data were processed

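Single-cell RNA of sorted heart endothelium was measured in 4 libraries, 1 for each stage. The authors aligned 10x reads to mm10 with Cell Ranger 2.2 and deposited counts of UMIs per gene and barcode. They were used as deposited, with gene positions from GENCODE M21 and no deposited column left unmapped. The E12 matrix holds all barcodes, and those with 452 or more UMIs (88.7% of its UMIs) were taken as cells. Cells were kept below the limits of the study's methods for UMIs (3000 to 12000 by stage), genes (1300 to 4000) and mitochondrial share (10% or 20%), and with a Scrublet score (scanpy 1.11.5) of up to 0.15 at an expected doublet rate of 0.8% per 1000 cells. Between 2.22% and 9.01% of called barcodes, counted before the other limits, scored above 0.15.

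UMIs were summed over the cells of a class in Python 3.11.15 (numpy 2.4.6, scipy 1.17.1, pandas 2.3.3, matplotlib 3.10.9) and given as CPM with exact 95% Poisson intervals, shares with exact Clopper-Pearson intervals and ratios with exact conditional binomial intervals. The limit of a count of 0 is 3 UMIs, except for the Esm1 shares, where it is the upper end of the exact interval. Cells of 1 library are not replicates of a stage, so no p-value was computed. Genes named from the ligand and receptor comparison are up to 12 with the largest mean log2 ratio in each direction among those past 1.5-fold at all 3 stages, those named for likeness are the 6 with the highest r, and members of the gene lists may be named with their values. Values of some genes these rules select are not reported here. Genes named from the other comparisons were chosen after their values were seen. The account of the cells that hold Apela was also added after the data were seen. The genes, cell gates and lists were chosen with earlier results of these data known. Alternatives were all called barcodes, another doublet rate, a required Pecam1 or Cdh5 UMI, stricter gates, thinning, means over cells, other minimum counts and other added CPM. The counting of ratios was tested on simulated data.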

Additional observations from a re-analysis of the deposited data

Results flagged for a closer look

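Counts outside the cells were above 0 at E12. Empty droplets of that library, 155236 barcodes with 1 to 50 UMIs and 619013 UMIs in all, held 9 Apln UMIs (14.5 CPM) and 21 Aplnr UMIs (33.9 CPM). Coronary cells of the same library held 46.6 and 106 CPM, and endocardial cells 0 and 4.42 CPM.

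Among the immediate-early genes Atf3, a stress-induced transcription factor, lay on opposite sides of 1 at the 2 later stages. Its ratio of ligand-only over receptor-only coronary cells was 1.37 in the adult and 0.816 at P2. The difference between the stages was not tested.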

How the results depend on the processing

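No paired analysis was possible because each stage has 1 library and no result comes from a test across samples, and for the same reason no replicate was left out. None of the values given next changed direction. Outside them, thinning took the ratio of Apln-positive shares below 1 in 3 subsets, to 0.812 in mature capillary cells at P2, 0.951 in those of adult hearts and 0.981 in adult coronary cells outside the artery gate. In coronary cells at E12 thinning left 1 Apln-positive cell, which had no Aplnr UMI.

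The log2 ratio of coronary over endocardial Apln was 4.98 at E12, taken against the limit for no endocardial UMI. It was 4.12 with a required Pecam1 or Cdh5 UMI, 3.40 under stricter gates and 4.20 without the highest cell. The exact intervals start at 4.29, 3.35, 1.57 and 3.19 in the same order. At E15 the log2 ratio was 4.28, and 6.33 under stricter gates and 5.84 with cells thinned to 500 UMIs before gating. At P2 thinning took it from 5.57 to 3.46. For Aplnr it went from 4.86 to 6.07 at E15 with a required Pecam1 or Cdh5 UMI, and thinning took it from 5.76 to 4.55 at P2 and from 3.42 to 0.61 in the adult.

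The log2 ratio of artery over other coronary cells for Apln at P2 was -1.99, and -1.54 over all called barcodes and -1.24 after thinning. For Aplnr at P2 it was -1.54, and -2.16 under stricter gates, -2.93 after thinning and -1.75 as a mean over cells. For Aplnr in the adult it was -0.91, and -1.30 at the default doublet rate, -1.50 under stricter gates and -2.29 after thinning.

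The log2 ratio of Apln-positive shares between cells with and without Aplnr was 0.88 at E15, 0.88 at P2 and 1.49 in adult hearts. Within mature capillary cells, a setting added after the data were seen, it was 1.68, 0.12 and 0.68. Thinning before gating gave 0.11 at P2 and 0.11 in the adult, thinning after gating 0.23 and 0.12, and coronary cells outside the artery gate 0.92 in the adult.

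The 3-stage count of genes higher in ligand cells was 3, and 0 after thinning and 10 with no minimum of UMIs. The count of lower genes was 3, and 6 over all called barcodes, 0 after thinning, 1 with 50 or more UMIs, 19 with no minimum and 5 with 5 CPM added. At P2 and in the adult, settings that were all added later, the higher count was 17, and 11 at the default doublet rate, 37 after thinning, 10 with 50 or more UMIs, 53 with 5 and 3 with 50 CPM added. The lower count was 54, and 110 after thinning, 180 with 5 and 23 with 50 CPM added. Of the tip cell genes 4 were higher, and 1 after thinning, 2 with 50 or more UMIs and 1 with 50 CPM added.

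With Apln, 4 genes were higher, and 9 over all called barcodes and 16 after thinning, and 23 were lower, and 14 with a required Pecam1 or Cdh5 UMI, 9 under stricter gates and 36 after thinning. With Aplnr, 2 were higher, and 0 after thinning, and 34 were lower, and 20 under stricter gates and 12 after thinning. By Spearman's rho 3 of the 6 leading genes for Apln and 0 of those for Aplnr were shared with the ranking by r. The other 133 values moved by less than their counting error or by less than 1.5 times. Across the settings 41 values of single named genes kept their side of the 1.5-fold limit while 19 no longer passed it in the same direction. The cause of the shifts was not tested.

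Depth limits the embryonic readings, since coronary cells at E12 number 75 and hold 7 Apln UMIs. The classes rest on a few UMIs each, and a shallow cell that has none of them enters no gate.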

Other observations

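Some other genes of polyamine metabolism, picked after their values were seen, were measured beside Odc1. Srm, spermidine synthase, was among the genes higher in ligand-only than in receptor-only coronary cells at P2 and in the adult, at 90.8 against 51.4 CPM and 62.8 against 31.5 CPM, the adult value from 7 UMIs, but at E15 it was 94.1 against 201 CPM. Amd1, which makes the aminopropyl donor of polyamine synthesis, was lower in coronary cells with Aplnr, at ratios of 0.0955, 0.369 and 0.274 at E15, P2 and in the adult. Its E15 ratio rests on 1 UMI in cells with Aplnr and runs from 0.00237 to 0.555. Azin1, the antizyme inhibitor that spares ornithine decarboxylase, was lower with Aplnr too, at 0.469, 0.402 and 0.269. With Apln the ratios were 1.58, 0.586 and 0.496 for Amd1 and 0.637, 0.583 and 0.615 for Azin1. At E15 the Azin1 ratios with either gene, and the Amd1 ratio with Apln, had intervals that include 1. Odc1 itself was 259 against 206 CPM, 129 against 114 CPM and 47.7 against 33.8 CPM in cells with and without Aplnr.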
